A study of Mus musculus with 6 samples.

Results

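The cells described here were the monocytes of cluster 12, a cluster marked by Ly6c2, Plac8 and other genes of classical monocytes. They were chosen as every cell that the authors' annotation calls a monocyte and places in cluster 12. This gave 1982 of the 58794 annotated cells, and 1982 of the 6260 annotated monocytes. The other monocytes lay in cluster 11 (2481 cells) and cluster 13 (1797 cells), against which cluster 12 was compared. The tissue was liver tumor from 6 young adult, wild-type male C57BL/6J mice injected in the liver with H22, a murine hepatocellular carcinoma (HCC) cell line, so that every tumor came from the same transplanted line. Of these, 3 mice (stress) went through chronic unpredictable mild stress, a daily changing set of stressors such as restraint or wet bedding, and 3 mice (control) stayed in standard housing. Per the study, the tumor cells were injected after the stress protocol and its behavioral evaluation. Each mouse gave 1 single-cell RNA library on the 10x Genomics platform. The question put to these cells was which of their genes, and what share of the monocytes, differed between stress and control mice.

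Classical monocytes are made in the bone marrow, leave it by way of the chemokine receptor CCR2, and carry high Ly6C on their surface. In tissue they can become macrophages or dendritic-like cells, and in blood they can turn into patrolling (nonclassical) monocytes, a step that depends on the nuclear receptor NR4A1. Tumors recruit them continually, and stress hormones, the glucocorticoids and catecholamines, act on them through receptors that they carry.

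The 6 libraries supplied 71, 349 and 185 cells of cluster 12 from control mice 1, 2 and 3, while stress mice 1, 2 and 3 supplied 97, 750 and 530. Control mouse 1 therefore contributed the fewest cells. Values were counts of unique molecular identifiers (UMIs), tags that mark each captured RNA molecule, and the sums over cluster 12 ranged from 301942 UMIs in control mouse 1 to 3595042 in stress mouse 2. The median cell of the cluster held between 3583 and 5924 UMIs in a mouse and between 1537 and 2181 detected genes. Mitochondrial genes took a median of 1.49%, 1.87% and 1.71% of UMIs in the control mice and 1.98%, 2.92% and 2.01% in the stress mice. Of the 1982 cells, 85 (4.29%) were called doublets. No cell barcode of the cluster was shared between libraries. Control libraries were counted with Cell Ranger 9.0.0 and stress libraries with 7.1.0, so that what the version and what stress contribute cannot be told apart anywhere in the comparisons below. Levels are given as CPM, the UMIs of a gene scaled to 1000000 UMIs of the summed cluster cells of a mouse.

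The markers used for the name stood high in cluster 12 in every mouse. Ly6c2, which encodes the surface protein that defines these cells (ENSMUSG00000022584, chr15:75108158-75111970, minus strand of GRCm38), had levels of 354, 581 and 696 CPM in controls 1 to 3 and 523, 756 and 506 CPM in stressed mice 1 to 3. Its close copy Ly6c1 can share reads with it, so its counts carry that uncertainty. The means of Ly6c2 were 569 ± 144 CPM (SD, n = 6) in cluster 12, 120 CPM in cluster 11 and 51.5 CPM in cluster 13. Plac8, a small cysteine-rich protein abundant in Ly6C-high monocytes (ENSMUSG00000029322, chr5:100553725-100572245), averaged 4703 ± 2026 CPM against 1300 and 720 CPM in clusters 11 and 13. Ms4a6c (ENSMUSG00000079419, chr19:11469366-11482192), a membrane protein of the MS4A family, varied least, with 654 to 779 CPM over the 6 mice. Its family member Ms4a4c (ENSMUSG00000024675, chr19:11404770-11427246) lay between 162 and 375 CPM. Chil3, a secreted chitinase-like protein (ENSMUSG00000040809, chr3:106147554-106167564), varied most and ranged from 529 CPM in control mouse 2 to 7101 CPM in control mouse 1. Within each mouse all 5 genes were higher in cluster 12 than in cluster 11 and in cluster 13. Over the 28 clusters of the series, cluster 12 ranked highest for Plac8, Ms4a6c and Ms4a4c. For Ly6c2 and Chil3 it came after cluster 25, annotated as neutrophils, with means of 729 and 3691 CPM. Of genes of patrolling monocytes, cluster 12 also ranked highest for Treml4 (65.4 CPM) and Nr4a1 (516 CPM), and held rank 3 for Ace. Since clusters were built from these same genes, their levels are a description and were not tested.

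**Figure D1:**
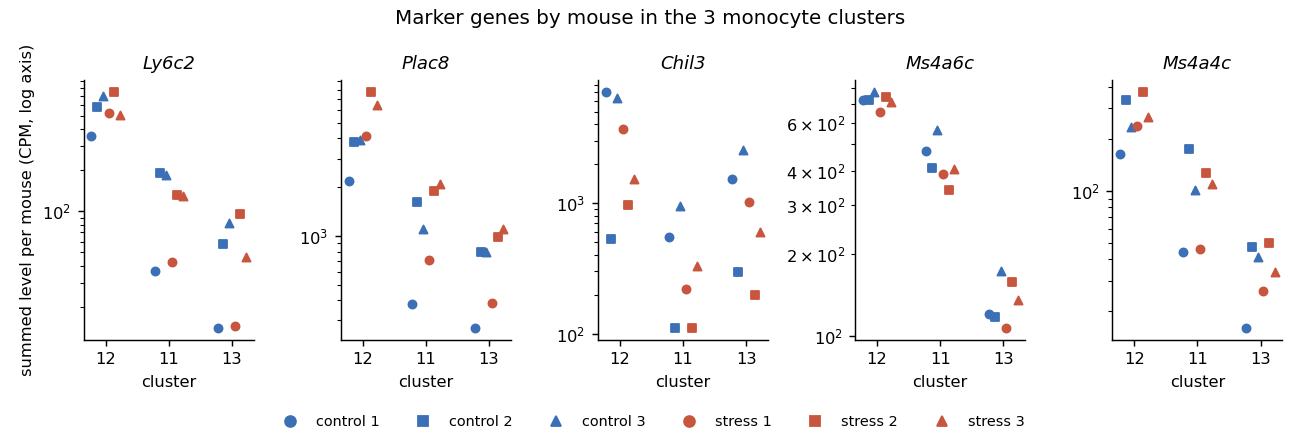
Level of the 5 marker genes (CPM, log axis) in clusters 12, 11 and 13, with each point the summed cells of 1 mouse, control in blue and stress in red. In each mouse cluster 12 lies above both other clusters for all 5 genes, and the points of Chil3 spread most, from 529 to 7101 CPM in cluster 12.

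At the level of cells, each was thinned to 2000 UMIs, which kept 1898 of 1982 cells. Ly6c2 was then seen in 43.8% to 61.7% of cluster 12 cells per mouse (66.8% on average without thinning). In tumor cells, which should lack it, the share was 0% to 1.2% after the same thinning and 3.09% on average without it. Plac8 was seen in 85.9% to 100% of cluster 12 cells and in 0% to 2.2% of tumor cells (98.3% and 11.2% on average without thinning, up to 23.2% in the tumor cells of 1 mouse). The median depth was 3583 to 5924 UMIs in cluster 12 and 21971 to 32523 UMIs in tumor cells before thinning.

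Ranked by the smallest ratio found in any mouse to the higher of clusters 11 and 13, the leading genes of cluster 12 were Ifitm6, an interferon-induced transmembrane protein (smallest ratio 4.80, on CPM + 10), Ly6a2, and Hp, the hemoglobin-binding protein haptoglobin (smallest ratio 4.05). Further among the first 20 were Ceacam1, S100a4, Napsa, Mgst1, Cd177, Sorl1, Dgat2, Ap1s2 and Ifitm3, together with 3 of the markers above, Ly6c2, Plac8 and Ms4a4c. Ace, the angiotensin-converting enzyme, is a gene of patrolling monocytes and was also in this group, with 37.9 CPM against 5.31 and 4.22 CPM.

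Among further genes of classical monocytes, some were higher in cluster 12 than in both neighbors and others were not. Ccr2, the receptor by which these cells leave the marrow, averaged 318 ± 59.1 CPM in cluster 12, 163 CPM in cluster 11 and 88.4 CPM in cluster 13. Vcan, the matrix proteoglycan versican, averaged 319 ± 88.1 CPM, 44.1 CPM and 166 CPM. Fn1, the matrix protein fibronectin, and Thbs1, the matrix protein thrombospondin, were higher in cluster 12 than in cluster 13 in only 1 of 6 mice each, with mean log2 ratios of -1.14 and -0.34. Genes that marked the other monocyte clusters were low in cluster 12. C1qa, the complement chain made by tissue macrophages, had 65.7 ± 42.8 CPM against 1930 CPM in cluster 11. Arg1, the arginine-degrading enzyme of suppressive myeloid cells, had 130 ± 127 CPM against 2855 CPM in cluster 13, and Spp1, the secreted protein osteopontin, had 325 ± 122 CPM against 8007 CPM there. Over the list of 14 classical monocyte genes, the summed level in cluster 12 was 9488 to 19146 CPM in controls and 14615 to 15527 CPM in the stressed mice.

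Markers of other cells were mostly scarce, apart from genes of macrophages, MHC class II and neutrophils. The 15 macrophage genes summed to 1757 to 4829 CPM in controls and 1472 to 3298 CPM in the stressed mice. This was near the level of cluster 13 (2406 to 4073 CPM) and below that of cluster 11 (6373 to 22570 CPM). The 7 MHC class II genes summed to 174 to 3545 CPM in controls and 648 to 2953 CPM in the stressed mice. The 6 genes of Kupffer cells, the resident macrophages of liver, summed to at most 10.3 CPM in any mouse, and the defining gene Clec4f stayed between 0 and 0.905 CPM. T and NK cell genes summed to at most 53.1 CPM, with Ncr1 at 0 in all mice, hepatocyte genes to at most 4.86 CPM with Serpina1a at 0, and hemoglobin genes to at most 5.29 CPM. B cell genes summed to 13.2 to 68.2 CPM. Dendritic cell genes summed to 26.5 to 41.6 CPM in the controls and 43.7 to 55.8 CPM in the stressed mice. The 7 endothelial genes summed to 86.1 to 135 CPM in controls and 146 to 223 CPM in the stressed mice, and like the dendritic ranges these did not overlap, while the 6 tumor cell genes summed to 167 to 248 CPM and 53.1 to 380 CPM. Neutrophil genes reached 963 to 4445 CPM in controls and 518 to 2111 CPM in the stressed mice, a list that includes S100a8 and S100a9, which monocytes also make. Their part in the differences described below was not tested.

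Cells of cluster 12 also varied among themselves in genes of classical and of patrolling monocytes. At 2000 UMIs per cell, 22.1% to 34.2% of cluster 12 cells of a mouse carried at least 1 UMI of Ace, Treml4, Spn or Pou2f2, genes of patrolling monocytes chosen for this split after their values were seen. The share was 10.4% to 14.7% in cluster 11 and 2.03% to 8.03% in cluster 13. In tumor cells thinned alike, the genes taken singly were seen in 0.4% to 2% (Ace), 0% to 0.2% (Treml4), 0% to 0.2% (Spn) and 0% to 0.8% (Pou2f2) of cells, against 5.38% to 9.65%, 7.17% to 14.3%, 3.23% to 8.33% and 12.1% to 19.7% in cluster 12. Without thinning Ace was seen in 11.4% of tumor cells on average and in 13.6% of cluster 12 cells. Cells with such a UMI held less Ly6c2, on average 0.778 UMIs per cell against 1.43 in the others, and this order was found in 6 of 6 mice. Ccr2 (0.472 against 0.852 UMIs per cell) and Vcan (0.506 against 0.863) had the same order in 6 of 6 mice. Itgal, the integrin chain used by patrolling monocytes to crawl on vessels, went the other way with 1.03 against 0.349 UMIs per cell, as did Nr4a1 with 1.87 against 1.03. Plac8 (11.8 against 10.1) and the growth factor receptor gene Csf1r (0.629 against 0.434) were higher in the cells with such a UMI, again in 6 of 6 mice. These means describe the cells and carry no test, since the cells of a mouse are not replicates. In stress mice 2 and 3 the share was 34.2% and 28.1%, in stress mouse 1 it was 23.7%, and in the control mice it was 26.6%, 22.1% and 23.9%.

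Cluster 12 took up a share of the monocytes of 16.9%, 25.2% and 30.2% in controls 1 to 3 and 20.3%, 46.4% and 30.3% in stressed mice 1 to 3. Stress mouse 2 stood highest, with a 95% Wilson interval of 44% to 48.8%, and the other stress mice fell within or at the edge of the control range. The means were 24.1% ± 6.73 and 32.3% ± 13.2 (SD, n = 3 each), a difference of 8.22 percentage points with p = 0.4 (exact two-sided permutation test, for which 3 against 3 mice cannot give less than 0.1). Without stress mouse 2 the difference was 1.19 percentage points. Intervals of shares cover counting error only. Of the cells annotated as monocytes, inflammatory myeloid cells, M-MDSCs, dendritic cells or neutrophils, here called myeloid, cluster 12 made up 6.78%, 11.2% and 7.18% in controls and 9.75%, 27.8% and 12.6% in the stressed mice (exact permutation p = 0.2). Among all annotated cells the share was 0.674%, 2.97% and 2% against 1.34%, 7.95% and 5.01% (exact permutation p = 0.3), and tumor cells made up 70.1%, 48.8% and 53.6% of the cells of control mice and 59.9%, 41% and 31.7% of those of stress mice.

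**Figure D2:**
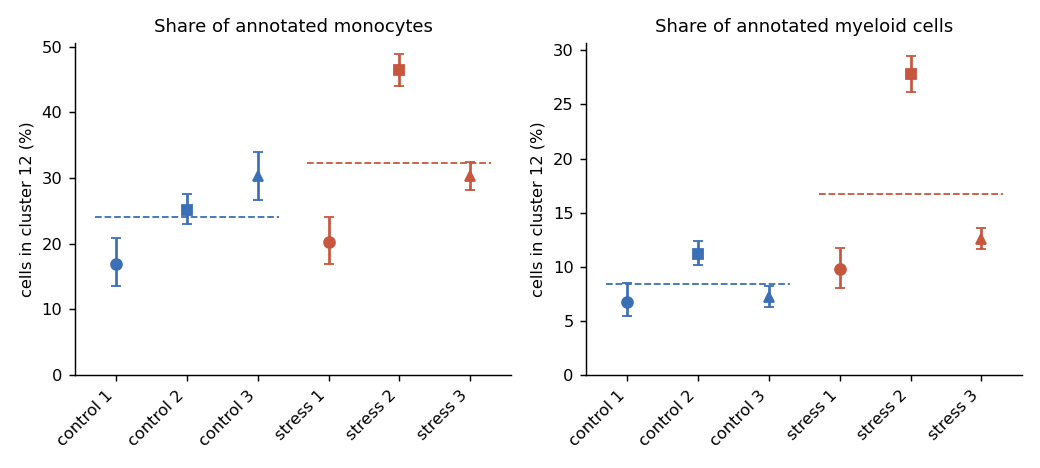
Share of cells in cluster 12 per mouse (%), out of monocytes on the left and out of myeloid cells on the right, with 95% Wilson intervals as bars and group means as dashed lines. Stress mouse 2 lies at 46.4% and 27.8%, and the other 5 mice lie between 16.9% and 30.3% of monocytes.

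The mice differed in cluster 12 in a way that crossed the conditions. H2-Aa, a chain of the MHC class II molecule that presents antigen to CD4+ T cells, had 29.8, 685 and 10.9 CPM in controls 1 to 3 and 77.7, 537 and 567 CPM in stressed mice 1 to 3. Control mouse 2 and stress mice 2 and 3 were thus high, and the other 3 mice were low. Cd74, the invariant chain of MHC class II, split the mice the same way with 89.4, 1602 and 66.1 CPM and 311, 1128 and 1279 CPM. Chil3 showed the opposite split, with 7101, 529 and 6312 CPM and 3703, 965 and 1525 CPM. Lcn2, the iron-binding protein lipocalin 2, and Mmp8, a neutrophil collagenase, joined Chil3: Lcn2 had 460, 33.1 and 397 CPM and 290, 30 and 39.1 CPM, and Mmp8 had 285, 57.2 and 324 CPM and 207, 43.4 and 34.9 CPM. S100a8, a calcium-binding alarmin, reached 2375, 293 and 1017 CPM and 695, 32.3 and 224 CPM. Between stress and control, H2-Aa (log2 fold change 0.81 ± 1.04 SE), Chil3 (-1.13 ± 0.75 SE) and S100a8 (-1.92 ± 0.92 SE) did not pass the test, with edgeR adjusted p of 0.789, 0.562 and 0.408.

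The 3 mice with high H2-Aa were those with the lowest median depth of the whole library, at 9032, 7656 and 7166 UMIs per cell against 18291, 16864.5 and 20478 in the others. Within cluster 12 the medians did not split in this way, at 4205, 4378 and 5924 UMIs per cell against 3583, 5236 and 4737. Nor did those of tumor cells, at 26149, 31343 and 31042 against 21971, 32523 and 32080.5. The whole-library median depends on the mix of cells, and tumor cells were the deeper ones. Tumor cells made up 48.8%, 41% and 31.7% of the cells of the mice high in H2-Aa, against 70.1%, 53.6% and 59.9% in the others. Tumor cells, which should lack H2-Aa and serve here as a measure of free RNA, split in H2-Aa as cluster 12 did. They held 11.2, 14.4 and 9.77 CPM in the mice high in H2-Aa and 1.57, 1.38 and 2.49 CPM in the others. The part of free RNA, of depth and of the share of tumor cells in the split of cluster 12 was not tested. Cluster 11, the cells richest in H2-Aa among the monocytes, lay between 4140 and 5496 CPM in all 6 mice. Cluster 13 split as cluster 12 did. Its 7 MHC class II genes summed to 243, 4217 and 259 CPM in controls and 715, 5905 and 2809 CPM in the stressed mice. Chil3 was seen in 59.6%, 19.5% and 72.8% of its thinned cells in controls and 51.5%, 25.1% and 37.1% in the stressed mice. After thinning, H2-Aa was seen in 45.8%, 38% and 41.5% of cluster 12 cells of the mice high in H2-Aa and in 4.69%, 2.78% and 8.6% of the others, against 2%, 3.2% and 2.6% and 0%, 0.2% and 0.2% of tumor cells. Without thinning, tumor cells, which are deeper, had H2-Aa in 3.33% to 31.6% of cells per mouse (15.2% on average), and cluster 12 in 3.78% to 55.9% (30.2% on average). On principal components of log2(CPM + 10) over the tested genes, the first component held 42.3% of the variance, with MHC class II genes at one end and S100a8, Lcn2 and Chil3 at the other. Genes called between stress and control also lay near its ends, Cmss1 and Lars2 with the MHC class II genes and Fos and Egr1 with S100a8.

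**Figure D3:**
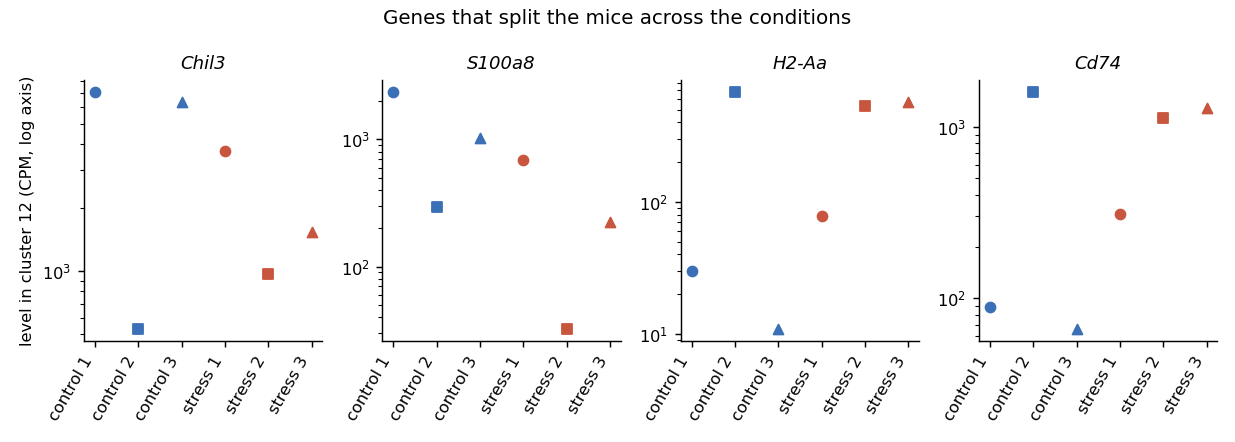
Level in cluster 12 (CPM, log axis) of Chil3, S100a8, H2-Aa and Cd74, with 1 point per mouse, control in blue and stress in red. Control mouse 2 lies with stress mice 2 and 3 in H2-Aa and Cd74, at 537 CPM or more in H2-Aa, while the other 3 mice stay at 77.7 CPM or less.

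Between stress and control mice, 19 of 8697 tested genes changed in cluster 12 (0.218%), of which 12 were higher and 7 were lower in stress (edgeR's quasi-likelihood test on summed counts, Benjamini-Hochberg adjusted p under 0.05). In all 19 the values of control and stress mice did not overlap. Over all tested genes, groups did not overlap in 12.1% with stress lower and in 6.22% with stress higher. At an unadjusted p under 0.05 there were 1128 genes (13%), with 6.48% of tested genes lower and 6.48% higher. The calls were sensitive to single mice. Without control mouse 1, 5 genes were called and without control mouse 3, 3 genes, in both cases all higher and all among the 19, whereas without stress mice 2 and 3 there were 10 and 12 calls. Without control mouse 2 or stress mouse 1, 92 and 78 genes were called, and these held all 19. In bulk sums of this kind, fewer cells that express a gene and less RNA per cell cannot be told apart.

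Among the genes that fell was Egr1, an immediate-early transcription factor switched on within minutes by many signals. Egr1 had 732, 435 and 603 CPM in controls and 82.6, 69.3 and 139 CPM in the stressed mice (log2 fold change -2.51 ± 0.32 SE, edgeR adjusted p = 0.0129). Fos, a subunit of the AP-1 transcription factor, had 2169, 1258 and 1533 CPM and then 513, 247 and 249 CPM (-2.24 ± 0.34 SE, edgeR adjusted p = 0.0259). The stress mice lay well below the control mice in both. Nr4a1, the nuclear receptor on which patrolling monocytes depend, had 1030, 639 and 750 CPM in controls and 215, 225 and 235 CPM in the stressed mice (-1.76 ± 0.23 SE, edgeR adjusted p = 0.0135). The SD among the stress mice was 9.89 CPM, and no stress mouse reached the control range. At 2000 UMIs per cell it was seen in 81.2%, 65.7% and 71.1% of cluster 12 cells in controls and in 41.9%, 30.7% and 32.5% in the stressed mice, against 3% to 4.8% of tumor cells. Dusp1, a phosphatase that shuts off MAP kinases and is induced by glucocorticoids, had 3550, 1809 and 2406 CPM and then 924, 618 and 716 CPM (-1.72 ± 0.29 SE, edgeR adjusted p = 0.0484). Btg2, an antiproliferative gene induced together with them, had 1119, 1230 and 963 CPM and then 301, 380 and 433 CPM (-1.48 ± 0.20 SE, edgeR adjusted p = 0.0143). Rasgef1b, an exchange factor for Ras-like proteins that is induced in macrophages by Toll-like receptors, had 86.1, 113 and 125 CPM and then 40.5, 21.7 and 36.7 CPM (-1.72 ± 0.27 SE, edgeR adjusted p = 0.0324). Wdr89, a WD-repeat gene, had 318, 226 and 265 CPM and then 112, 106 and 82.2 CPM (-1.36 ± 0.22 SE, edgeR adjusted p = 0.0401). Without control mouse 1 or control mouse 3 none of the 7 passed the threshold. Fos, Dusp1, Rasgef1b and Wdr89 also lost their calls without stress mouse 2 or stress mouse 3, and Nr4a1 and Btg2 without stress mouse 2. With equal cells per mouse Egr1 (edgeR adjusted p = 0.228) and Rasgef1b (0.154) did not pass, and Dusp1 did not pass with RLE normalization (0.0511) or in cells with 3 of 5 markers (0.0516).

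CREB, one of the factors that switch on immediate-early genes, binds the site TGACGTCA. The core searched here was TGACG on either strand (read as CGTCA when it lies on the other strand). RefSeq promoters, from 250 bases before to 50 after the start (build GRCm38.p6), were at hand for 6 of the 7 lower genes, and Egr1 was not used here. The core was present in 5 of these 6 and absent in Wdr89, against 20.8% of 32851 promoters, and the whole site, which contains the core on both strands, was present in 2 of 6 against 1.79%. Those promoters belong to 27025 genes, beyond the 8697 tested in cluster 12. The shares are therefore no matched background, and enrichment was not tested. The 8 promoters found for 7 of the 12 higher genes held the core in 2 cases and the whole site in 1, that of Cmss1. A match describes the letters and is not a binding site. The promoters of Btg2 (chr1:134079106-134079405, minus strand), Dusp1 (chr17:26508423-26508722, minus strand), Fos (chr12:85473640-85473939, plus strand) and Nr4a1 (chr15:101266596-101266895, plus strand) are shown because they are the lower genes with 2 or more cores, with each core in capitals. The promoter of Rasgef1b held 1 core and that of Wdr89 held 0, and neither is shown.
Btg2: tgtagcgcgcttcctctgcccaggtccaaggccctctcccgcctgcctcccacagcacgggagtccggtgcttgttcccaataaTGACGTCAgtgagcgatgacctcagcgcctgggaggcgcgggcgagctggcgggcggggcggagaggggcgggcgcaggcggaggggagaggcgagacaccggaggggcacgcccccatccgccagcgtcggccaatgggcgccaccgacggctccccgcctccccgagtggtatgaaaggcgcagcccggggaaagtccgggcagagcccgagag
Dusp1: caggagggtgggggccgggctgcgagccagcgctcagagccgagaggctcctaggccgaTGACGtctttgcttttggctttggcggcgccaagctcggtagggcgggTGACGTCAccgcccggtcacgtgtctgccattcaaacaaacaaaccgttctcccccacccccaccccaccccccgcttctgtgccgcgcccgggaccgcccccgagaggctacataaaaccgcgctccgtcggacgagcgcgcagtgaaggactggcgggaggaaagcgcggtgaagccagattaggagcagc
Fos: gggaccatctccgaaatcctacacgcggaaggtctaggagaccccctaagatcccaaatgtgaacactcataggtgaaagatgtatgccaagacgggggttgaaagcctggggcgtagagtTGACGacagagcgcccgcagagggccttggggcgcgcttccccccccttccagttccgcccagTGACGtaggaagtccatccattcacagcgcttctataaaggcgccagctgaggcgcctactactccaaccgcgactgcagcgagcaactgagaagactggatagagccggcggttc
Nr4a1: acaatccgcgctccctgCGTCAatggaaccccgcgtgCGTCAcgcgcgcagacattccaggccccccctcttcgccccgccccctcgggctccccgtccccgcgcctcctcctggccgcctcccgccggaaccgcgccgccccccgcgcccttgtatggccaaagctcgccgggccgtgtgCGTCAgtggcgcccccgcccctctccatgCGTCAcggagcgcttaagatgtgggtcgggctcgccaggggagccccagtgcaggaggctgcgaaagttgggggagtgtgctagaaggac

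The list of 16 monocyte transcription factor genes held members on both sides, with 12 fitted lower and 4 fitted higher in stress. Its member Nfkbia encodes an inhibitor of such factors and not a factor itself. The list was drawn up with earlier results of these data known and includes immediate-early genes such as Egr1, Fos and Jun. Its counts beside the shares of all tested genes are therefore a description and no independent evidence. Of the 16, 3 were called lower (Egr1, Fos and Nr4a1) and none higher, against 0.218% of all tested genes. At an unadjusted p under 0.05, 8 were lower and 1 was higher, against 6.48% of all tested genes in either direction, and the median log2 fold change was -0.64 against -0.00 over all tested genes. In 10 of the 16 every stress mouse lay below every control mouse, against 12.1% of all tested genes, and in 3 (Irf8, Cebpb and Zeb2) every stress mouse lay above, against 6.22%. Jun, the partner of Fos in AP-1, had 835, 331 and 616 CPM in controls and 249, 152 and 132 CPM in the stressed mice (-1.69 ± 0.36 SE, edgeR adjusted p = 0.114). Klf2, a factor that restrains inflammatory activation, had 1030, 599 and 1194 CPM and then 487, 352 and 179 CPM (-1.43 ± 0.37 SE, edgeR adjusted p = 0.154). Neither passed the threshold, although the groups did not overlap. Without control mouse 2 both passed (edgeR adjusted p = 0.0108 for Jun and 0.0402 for Klf2), as Jun did without stress mouse 1 (0.0485). With DESeq2 both passed (adjusted p = 1.66e-04 for Jun and 0.00424 for Klf2), as they did without a filter on low counts, and Jun passed with thinned cells (edgeR adjusted p = 0.026). Of the 14 alternatives, Jun did not pass in 8 and Klf2 in 10. Cebpa, a factor of myeloid precursors, had 38.8 ± 4.81 CPM in control and 18.5 ± 2.6 CPM in the stressed mice (SD, n = 3 each, edgeR adjusted p = 0.154). Irf8, a factor that drives monocyte and dendritic cell fate, was the member higher at an unadjusted p under 0.05, with 171 ± 24.2 CPM and 271 ± 57.7 CPM (edgeR adjusted p = 0.172). Cebpb, a factor that acts in the survival of monocytes, had 2895 ± 133 and 3462 ± 172 CPM (edgeR adjusted p = 0.452). Immediate-early genes are also induced while tissue is dissociated, and heat shock genes, another sign of handling, were summed beside them: they lay at 878 to 1242 CPM in controls and 1042 to 2064 CPM in the stressed mice, with none of the 6 called, 2 higher at an unadjusted p under 0.05 (Hspa1b, without overlap, and Hsp90aa1) and a median log2 fold change of 0.50. Their part in the lower immediate-early genes was not tested.

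**Figure D4:**
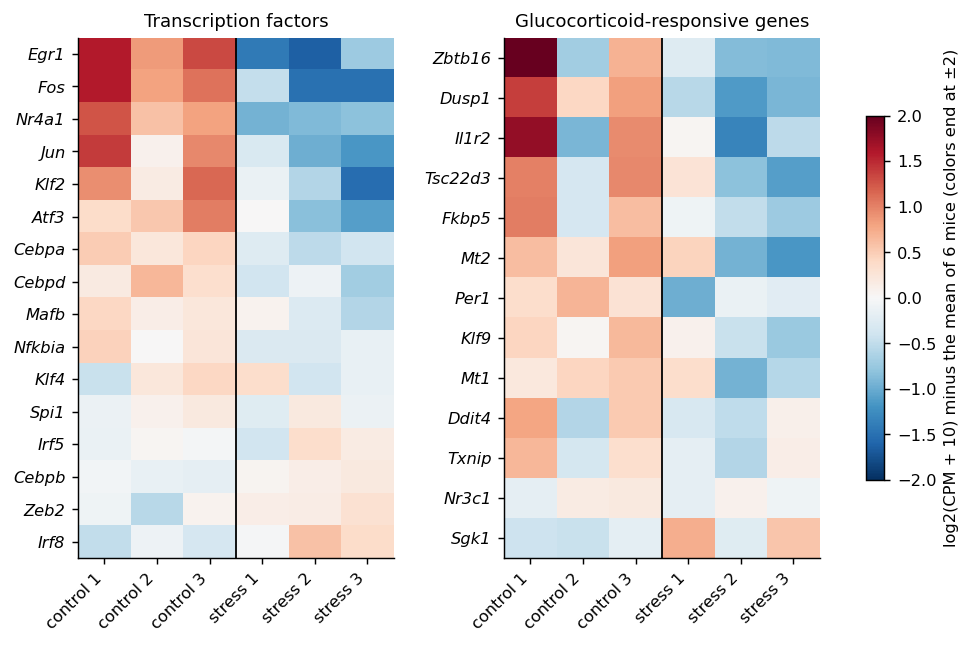
Level of monocyte transcription factor genes with the inhibitor gene Nfkbia (left) and glucocorticoid-responsive genes (right) in cluster 12, as log2(CPM + 10) minus the mean of the 6 mice, with 1 column per mouse and colors ending at ±2. Egr1, Fos and Nr4a1 are red in each control mouse and blue in each stress mouse, while for Tsc22d3 and Fkbp5 control mouse 2 is blue.

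The glucocorticoid list was of interest because stress raises these hormones. Per the study the stressors preceded tumor injection, and it gives no hormone levels. This list was also drawn up with earlier results of these data known. Of its 14 genes 13 were tested, 1 was called lower (Dusp1) and none higher, against 0.218% of all tested genes. In 2 of the 13 every stress mouse lay below every control mouse, against 12.1% of all tested genes. In none did every stress mouse lie above, against 6.22%. At an unadjusted p under 0.05, 8 were lower and 1 was higher, against 6.48% of tested genes in either direction, and the median log2 fold change was -0.84. Tsc22d3, which encodes the glucocorticoid-induced leucine zipper GILZ, had 229, 84 and 221 CPM in controls and 133, 57 and 44.9 CPM in the stressed mice (-1.19 ± 0.47 SE, edgeR adjusted p = 0.322). Fkbp5, a chaperone of the glucocorticoid receptor, had 278, 102 and 208 CPM and then 123, 90.4 and 75.8 CPM (-0.94 ± 0.35 SE, edgeR adjusted p = 0.313). Control mouse 2 overlapped the stress mice in both, and without it Fkbp5 passed the threshold (edgeR adjusted p = 0.0321). Per1, a clock gene with glucocorticoid-driven expression, had 76.2, 97.6 and 72.4 CPM and then 24.3, 51.5 and 47.3 CPM without overlap (-0.84 ± 0.24 SE, edgeR adjusted p = 0.199). Sgk1, a kinase induced by glucocorticoids and by other signals, was on the opposite side, with 109, 107 and 129 CPM and then 254, 124 and 224 CPM (0.87 ± 0.28 SE, edgeR adjusted p = 0.251). The receptor itself, Nr3c1, had 64.8 ± 10.2 CPM in control and 59 ± 6.55 CPM in the stressed mice (SD, n = 3 each), with a log2 fold change of -0.07 and a 95% interval from -0.49 to 0.35. In tumor cells of the same mice Tsc22d3 had 261, 54.3 and 188 CPM in control and 88.5, 34.1 and 50.7 CPM in the stressed mice, and Fkbp5 had 203, 59.9 and 156 CPM and then 118, 73 and 85.7 CPM.

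Of the 10 adrenergic signaling genes 8 were tested, and Crem alone was called, against 0.218% of all tested genes. Of the 8, 3 were fitted higher and 5 lower (median log2 fold change -0.09), and besides Crem, higher without overlap, 3 were lower without overlap (Arrb2, Grk2 and Pde4b, at -0.19, -0.30 and -0.32) but did not pass the test. Over all tested genes, 6.22% were higher and 12.1% were lower without overlap. Crem encodes a cAMP-responsive modulator of transcription that is induced when cAMP rises, and it had 46.4, 64 and 47.1 CPM in controls and 115, 137 and 121 CPM in the stressed mice (1.31 ± 0.18 SE, edgeR adjusted p = 0.0197). Mefv, which encodes the inflammasome sensor pyrin, had 49.7, 47.2 and 46.2 CPM in control and 95.5, 117 and 117 CPM in the stressed mice (1.32 ± 0.19 SE, edgeR adjusted p = 0.0197). Neither Crem nor Mefv passed when control mouse 1, control mouse 3, stress mouse 2 or stress mouse 3 was left out, with edgeR adjusted p from 0.0677 to 0.200 for Crem and from 0.0741 to 0.176 for Mefv. With equal cells per mouse neither passed (edgeR adjusted p = 0.141 for Crem and 0.0618 for Mefv), and with thinned cells Crem had a log2 fold change of 0.85 and did not pass (edgeR adjusted p = 0.155).

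Among the genes with the largest rises were Cmss1, Lars2, Gphn and Cdk8, genes with different roles outside monocyte function. Cmss1, a homolog of a yeast gene of the small ribosomal subunit, had 129, 98.7 and 118 CPM in controls and 962, 1412 and 1326 CPM in the stressed mice (3.52 ± 0.24 SE, edgeR adjusted p = 1.75e-04). Lars2, the mitochondrial leucyl-tRNA synthetase, had 209, 207 and 251 CPM and then 1146, 1809 and 1490 CPM (2.81 ± 0.23 SE, edgeR adjusted p = 5.25e-04). These 2 genes and Gphn, the scaffold protein gephyrin (2.64 ± 0.23 SE, edgeR adjusted p = 7.33e-04), passed the threshold in each of 14 alternatives. With Cdk8 (2.63 ± 0.31 SE), Camk1d (1.72 ± 0.20 SE) and the noncoding RNA Gm19951 (1.36 ± 0.22 SE), all 6 genes of a list drawn up because they were higher in stress libraries in earlier results were called, which is no independent evidence of their direction. Of the 14 alternatives, Cdk8 missed the threshold in 1, Camk1d in 2 and Gm19951 in 5. The called mitochondrial transcripts mt-Nd4l and mt-Atp8 missed it in 2 and 5. In tumor cells Cmss1 had 106, 135 and 101 CPM in control and 299, 432 and 628 CPM in the stressed mice. For Cmss1, Lars2, Gphn, Cdk8 and Camk1d every stress mouse lay above every control mouse in each of the 24 other clusters with at least 10 cells per mouse, and Gm19951 in 21 of 24. The mitochondrial transcripts mt-Nd4l (24 of 24) and mt-Atp8 (23 of 24), whose genes overlap mt-Nd4 and mt-Atp6 so that their counts are uncertain, and, downward, Wdr89 (24 of 24) shared this breadth. Clusters share mice, so these counts describe and do not test. Egr1 and Fos were lower without overlap in 18 and 19 of the 24 other clusters, Btg2 in 9, Dusp1 in 7, Nr4a1 in 3 and Rasgef1b in 2, and Mefv was higher without overlap in 8, Mrps28 in 7 and Crem in 6. By the group means alone the direction was that of cluster 12 in 23 of 24 for Egr1, Fos, Dusp1 and Crem, 22 for Mefv, 19 for Btg2, 16 for Nr4a1, and 15 for Rasgef1b and Mrps28. Mrps28 (1.72 ± 0.25 SE) and Ccdc162 (3.82 ± 0.63 SE) complete the 12 higher genes, and Ccdc162 rested on low levels of 6.62, 8.92 and 3.62 CPM in controls and 42.1, 48.4 and 162 CPM in the stressed mice. Ccdc162 was higher without overlap in 17 of the 24 other clusters and by the means in 24. It did not pass without control mouse 1 or control mouse 3 (edgeR adjusted p = 0.204 and 0.267), and Mrps28 did not pass without either of these or stress mouse 2 (edgeR adjusted p from 0.0704 to 0.198).

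**Figure D5:**
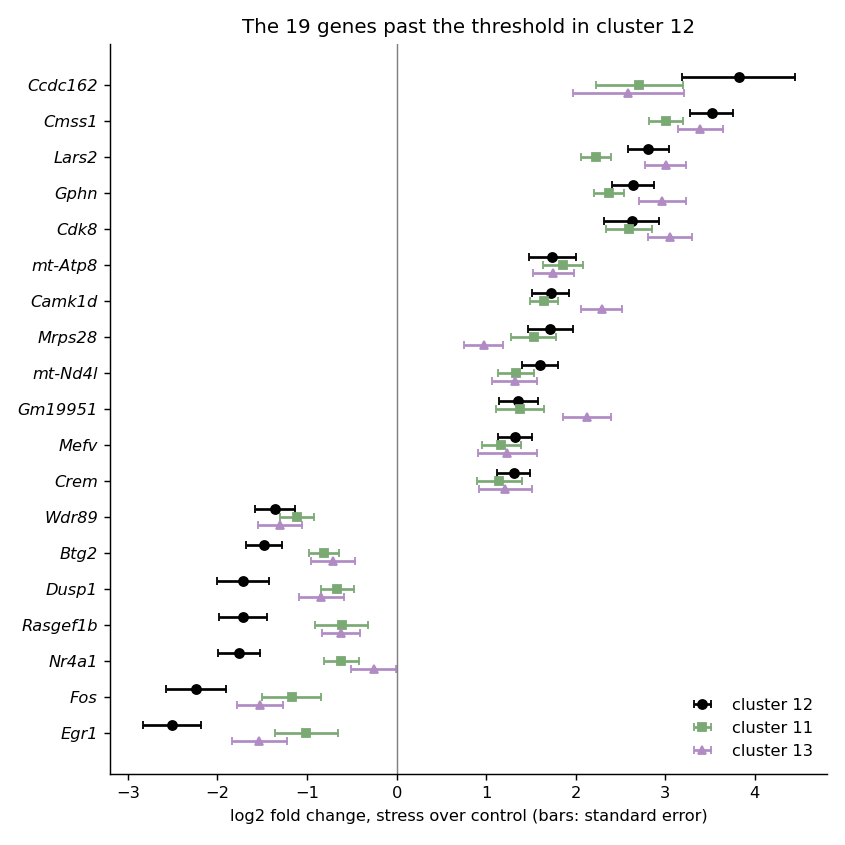
The log2 fold change of stress over control for the 19 genes called in cluster 12 (black circles), with the same genes in cluster 11 (green squares) and cluster 13 (purple triangles) and standard errors as bars. Cmss1, Lars2, Gphn, Cdk8 and Camk1d lie above 1.6 in all 3 clusters, while Nr4a1 runs from -1.76 in cluster 12 to -0.25 in cluster 13.

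Of 21 cytokine and chemokine genes, 17 had higher fitted values under stress, but none was called. Of the 21, 7 were higher and none lower at an unadjusted p under 0.05, and the median log2 fold change was 0.41. For this list and those that follow, the share of all tested genes at that level was 6.48% higher and 6.48% lower. Il1b, the cytokine interleukin 1 beta, had 3365, 3874 and 3447 CPM in controls and 5784, 5544 and 8445 CPM in the stressed mice, with no overlap (0.98 ± 0.21 SE, edgeR adjusted p = 0.114). Il1b passed without stress mouse 1 (edgeR adjusted p = 0.0487) and with DESeq2 (adjusted p = 0.00214). It also passed without a filter on low counts (edgeR adjusted p = 8.44e-04) and with replicate number as a block (0.0253), although the numbers were not taken to pair the mice. In 10 of the 14 alternatives Il1b did not pass, with edgeR adjusted p up to 0.366. Cxcl2, which draws neutrophils, was among the most abundant with 4157 ± 1396 and 5268 ± 2289 CPM. Among 16 pattern recognition and Fc receptor genes none was called and 4 were higher at an unadjusted p under 0.05, including Tlr4, the receptor for bacterial lipopolysaccharide (106, 94.5 and 126 CPM and then 159, 189 and 199 CPM, edgeR adjusted p = 0.152). Of 18 adhesion and migration genes 16 were tested, none was called and 5 were higher at that level, among them the chemokine receptor gene Ccr1 (222, 181 and 212 CPM and then 376, 318 and 411 CPM, edgeR adjusted p = 0.119). Tlr4 and Ccr1 passed without a filter on low counts (edgeR adjusted p = 0.0241 and 0.00513) and with replicate number as a block (0.0392 and 0.0218). With DESeq2 Ccr1 passed as well (adjusted p = 0.0109). Of the 14 alternatives, Ccr1 did not pass in 11 and Tlr4 in 12. Of 22 interferon-stimulated genes 21 were tested and none was called, with 5 higher and 1 lower at an unadjusted p under 0.05. The 9 MHC class I genes had 3 higher at that level and none called, and the 17 hypoxia and glycolysis genes had 3 higher and 2 lower at that level and none called. Of 14 suppressive polarization genes 12 were tested, with 1 higher at that level and none called, and of 10 proliferation genes 8 were tested, with 1 higher at that level and none called. The 7 MHC class II genes had a median log2 fold change of 0.73, with none called and none past an unadjusted p of 0.05 in either direction.

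Of the 14 genes of classical monocytes none was called by edgeR, the median log2 fold change was -0.09, and 1 was higher (Plac8) and 2 were lower (Vcan and Ifitm6) at an unadjusted p under 0.05. Plac8 had 2169, 3783 and 3931 CPM in control and 4151, 7778 and 6404 CPM in the stressed mice (0.97 ± 0.28 SE, edgeR adjusted p = 0.188), and it passed with DESeq2 (adjusted p = 0.025) and without a filter on low counts (edgeR adjusted p = 9.98e-04). Plac8 did not pass in 11 of the 14 alternatives. Vcan had 437, 327 and 410 CPM and then 251, 227 and 261 CPM (-0.59 ± 0.21 SE, edgeR adjusted p = 0.286). For Ly6c2 the log2 fold change was 0.19 with a 95% interval from -0.37 to 0.76, and its sign changed when control mouse 1 was left out. Ms4a6c had a log2 fold change of -0.00 with an interval from -0.39 to 0.38. The 10 patrolling monocyte genes summed to 1056 to 1580 CPM in the controls and 639 to 838 CPM in the stressed mice. Without Nr4a1 the sums of the other 9 were 417 to 550 CPM and 424 to 613 CPM, which overlap. All 10 summed to 571 to 674 CPM in controls and 454 to 468 CPM in the stressed mice in cluster 11. In cluster 13 these sums were 398 to 508 CPM and 300 to 496 CPM. In cluster 12, Nr4a1 alone of the 10 was called, against 0.218% of all tested genes, and it was lower. The median log2 fold change was 0.27, and Cx3cr1, the fractalkine receptor, was higher at an unadjusted p under 0.05 with 9.94, 13.6 and 9.96 CPM and then 19.4, 33.1 and 16.1 CPM (edgeR adjusted p = 0.25). Of 14 tested macrophage genes 1 was higher and 1 lower at that level and none was called. Among the 7 endothelial genes, whose sum was higher in the stressed mice, 4 were higher at an unadjusted p under 0.05 and none was called.

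Genes that the study followed were low or did not pass the test in cluster 12. The study drew the interaction of JAM2 and F11R between endothelial cells and macrophages from these same libraries. In other experiments it measured Jam2 in endothelial cells and genes of macrophage polarization in cultured human macrophages. Those are not the cells described here. F11r, which encodes the junctional adhesion molecule JAM-A, had 96, 75.6 and 75.1 CPM in controls and 72.9, 53.4 and 81.3 CPM in the stressed mice (-0.13, 95% interval -0.64 to 0.38). At 2000 UMIs per cell it was seen in 9.29% to 25% of cluster 12 cells and in 10.4% to 13% of tumor cells. Without thinning the shares were 30.2% and 76.5% on average. Tumor cells thus held F11r themselves and are no measure of free RNA for this gene. Its partner Jam2 lay between 2.5 and 17.8 CPM and did not pass the filter on low counts, and Jam3 had 2 UMIs in all. Tnf had 189 ± 66.8 CPM in control and 199 ± 136 CPM in the stressed mice, Il6 202 ± 20.3 and 152 ± 66.2 CPM, and Cxcl10 384 ± 336 and 594 ± 74.7 CPM (SD, n = 3 each). Of genes tied to suppressive macrophages, Tgfb1 had 263 ± 43.8 and 339 ± 109 CPM, Arg1 86.3 ± 69.3 and 174 ± 173 CPM, Mrc1, the mannose receptor CD206, 25.4 ± 41.7 and 23.5 ± 6.16 CPM, and Il10 13.1 ± 11.7 and 23.8 ± 15 CPM. The edgeR adjusted p of these lay between 0.438 for Il10 and 0.923 for Tnf. Arg1 did pass without a filter on low counts (edgeR adjusted p = 5.26e-04) and with replicate number as a block (0.0373), but not in 12 of the 14 alternatives. Control mouse 2 decided the value of Mrc1, which had 0, 73.5 and 2.72 CPM and then 17.8, 22.5 and 30 CPM. Its log2 fold change was -0.31 with control mouse 2 and 3.52 without it (edgeR adjusted p = 0.0278), a fitted value against controls near 0 that depends on the prior count.

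Whether stress acted differently on cluster 12 than on its neighbors was tested in 1 model over the 3 clusters of the 6 mice, with mouse as a block. None of 10545 genes had a stress effect that differed from that in cluster 11 (0%, edgeR), or from that in cluster 13 (0%, edgeR). At an unadjusted p under 0.05 there were 400 genes (3.79%) against cluster 11 and 710 (6.73%) against cluster 13, and DESeq2 called 1 and 13. Without control mouse 2 the count against cluster 11 was 10 (edgeR), and without any other single mouse both counts were 0. The 7 lower genes each had a more negative estimate in cluster 12, the cluster in which they had been selected, so these differences are a description. For Nr4a1 the stress effect in cluster 12 minus that in cluster 13 was -1.45 on the log2 scale (95% interval -2.05 to -0.85, edgeR adjusted p = 0.199) and minus that in cluster 11 it was -1.09 (-1.70 to -0.49, edgeR adjusted p = 1). Egr1 differed by -1.28 from cluster 11 and by -0.80 from cluster 13, Fos by -0.99 and -0.79, and Dusp1 by -0.997 and -0.828, with none past the threshold. Among the higher genes, the differences for Cdk8 were 0.11 (95% interval -0.42 to 0.63) and -0.39 (-0.91 to 0.14). In cluster 11 alone 11 genes were called and in cluster 13 alone 9, of which 6 and 7 were among the 19.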

How the data were processed

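Single-cell RNA was measured in liver tumors of 3 control and 3 stress mice, with the 10x Genomics platform. The deposited values were unnormalized UMI counts for each gene in each cell, made by the authors with Cell Ranger (9.0.0 for control and 7.1.0 for stress libraries in the file headers) on mm10 with the same 34099 gene identifiers in all libraries, together with the cluster and cell type of each cell from their Seurat analysis. Per their methods, cells with over 20% mitochondrial UMIs or under 200 genes had been removed and doublets treated with Scrublet. Cells were kept as annotated, and doublets were called again per library with scanpy 1.11.5 for an alternative. Gene positions came from GENCODE M21 (GRCm38), in which 32061 identifiers were found.

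Within a mouse, the counts of all cluster 12 cells were added up. Genes that passed filterByExpr were scaled by TMM and entered the quasi-likelihood test of edgeR 4.0.16 (R 4.3.3), and p-values were adjusted by Benjamini-Hochberg (threshold 0.05). Standard errors were derived from the test statistic. Clusters 11, 12 and 13 were fitted together, with mouse as a block, to compare stress effects. On simulated data for stress against control in cluster 12 (8483 genes, dispersion 0.05) this step recovered 90 of 90 genes changed by 2 on the log2 scale and 44 of 110 changed by 1, with 6 false calls. The simulation gave every gene the same dispersion and changed no gene of the lowest levels. It does not give the recovery of genes that vary more between mice, such as S100a8 (-1.92 ± 0.92 SE, not called). Shares were compared by exact permutation. Cells were thinned to 2000 UMIs with a fixed seed for shares of cells with a UMI. Mice are the replicates, and their sums differed by more than sampling noise. Precision is limited by 3 mice per group and by 71 cells in control mouse 1. Alternatives were RLE normalization, no count filter, DESeq2 1.42.0, a replicate block, leaving out each mouse, an absolute log2 fold change over 0.15, leaving out called doublets, equal cells per mouse, thinned cells, and cells with at least 3 of the 5 markers.

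Members and gene lists were chosen with earlier results of these data known. Named genes were up to 25 called genes without overlap between groups, the 20 leading genes of the cluster, the markers and genes the study follows, and of each list the called and the 4 most abundant members. Other list members, and the 4 genes of the split toward patrolling monocytes, were named after their values were seen. Some genes are not reported here.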

Additional observations from a re-analysis of the deposited data

How the results depend on the processing

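Under the alternatives none of the 19 called genes changed direction, and all 19 stayed past the threshold without a count filter, with DESeq2, with a replicate block, without called doublets, without control mouse 2 and without stress mouse 1. The count of called genes in cluster 12 was 379 without a filter on low counts, 103 with DESeq2, 197 with a replicate block, 45 without called doublets and 38 with cells thinned, against 19, and it ranged from 3 to 92 when single mice were left out. It was 18 with RLE normalization, 14 with equal cells per mouse, 20 with cells holding 3 of 5 markers and 19 above an absolute log2 fold change of 0.15. The counts of genes whose stress effect differed from cluster 11 or cluster 13 were 0 in the reported fit, 54 and 80 without a filter, 1 and 13 with DESeq2, 0 and 2 without called doublets, and 0 to 10 against cluster 11 and 0 against cluster 13 without single mice. The cause of these shifts was not tested. The difference in the share of monocytes was higher in stress with each denominator and each mouse left out in turn, from 1.19 to 14.2 percentage points without single mice.

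The replicate numbers were not taken to pair the mice: deviations of same-numbered mice correlated at 0.132, 0.208 and 0.0709, although each stress mouse correlated best with the control mouse of its own number, a hint from the data and not from the design. With the replicate block, within-number differences in share averaged 8.22 percentage points (exact sign flips, p = 0.25, the smallest that 3 pairs can give). Of the 71 uncalled genes that were followed through the alternatives, 27 passed the threshold with the replicate block. Among them were Plac8, Jun and Klf2 (edgeR adjusted p = 0.0164, 0.00321 and 0.0337). Il1b, Ccr1, Tlr4 and Arg1 were others (edgeR adjusted p = 0.0253, 0.0218, 0.0392 and 0.0373).

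The log2 fold change turned its sign for 6 of the 71 uncalled genes that were followed through the alternatives. Ly6c2 became -0.237 with equal cells and -0.0532 with thinned cells, and ranged from -0.0049 to 0.473 without single mice (lowest without control mouse 1). Ms4a6c became 0.0281 without a filter and ranged from -0.0800 to 0.0824 without single mice (above 0 without control mouse 1, control mouse 3 or stress mouse 1). F11r ranged from -0.316 to 0.0612 without single mice (above 0 without stress mouse 2). Tnf became -0.0414 with the replicate block, -0.0499 without doublets and -0.0481 with equal cells, and ranged from -0.514 to 0.621 without single mice (below 0 without control mouse 2 or stress mouse 3). Mrc1 became 0.0391 with DESeq2 and 0.187 with the replicate block, and ranged from -0.830 to 3.52 without single mice (3.52 without control mouse 2, edgeR adjusted p = 0.0278). Slc2a3 became 0.209 with equal cells. With 71 to 750 cells per mouse, changes of 1 on the log2 scale were recovered less often than not in simulated data.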

Other observations

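A few cells of cluster 12 carried genes of granule-forming precursors. Elane, the neutrophil elastase made by promyelocytes, had 954 UMIs in the cluster, and 931 of them lay in the 8 cells that held at least 10 Elane UMIs each. Of these cells 3 came from stress mouse 2, where they held 829 of 842 Elane UMIs and 311 of 314 UMIs of Mpo, the myeloperoxidase of the same granules. The others were 2 in control mouse 2, 2 in stress mouse 1 and 1 in stress mouse 3. Control mouse 1, with 71 cells, and control mouse 3, with 185, had none. The level of Elane summed over the cluster, from 0 CPM in control mouse 1 to 234 CPM in stress mouse 2, therefore rested on single cells.

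Variation between cells of cluster 12 was ranked over 990 genes with a mean of at least 0.25 UMIs per thinned cell in every mouse. Cxcl2, a chemokine gene, came first. It had the highest ratio of variance to mean, 17 on average over mice (13.8 to 22.3), followed by Ccl4 at 14.6 (10.5 to 29.2), and Ccl2 was the fourth at 9.12 (5.68 to 12.6). Fth1, the ferritin heavy chain that stores iron, lay between them at 14.2 (9.36 to 18.5). Il1b (8.1) and Chil3 (6.55) were among the first 10. A ratio of 1 is what counting alone gives, and cells of different depth had been thinned to the same number of UMIs. The ratio tends to rise with the level of a gene and was not corrected for it. Abundant genes such as Lyz2, Tmsb4x and Malat1 also stood high, so the order is not one of variation alone.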
